A study of Mus musculus with 32 samples.

Results

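GAS (gastrocnemius) muscle of the mouse was followed after the sciatic nerve had been cut, and the step from 7 d to 14 d post denervation is described here. The members were the 4 samples labelled Day14 and the 4 labelled Day7, 8 of the 32 samples of the series, which covers 8 time points with 4 samples each. The 4 samples labelled Day0 serve as background for levels. Every gene that reached an FPKM of 0.1 in at least 4 of the 8 samples was compared, which held for 18551 of 33397 genes. FPKM, fragments scaled to exon length and to the depth of the library, is the unit the authors deposited.

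The mice were C57BL/6 by the labels and C57BL/6J by the study's methods, and the tissue label was gastrocnemius muscle in each group. Sciatic nerve transection stands as the treatment in the labels of the 7 d, 14 d and 0 d samples alike, so the 0 d muscles carry the same treatment label and no sham label. The study's methods describe the mice as male. The table names samples by time point, with no label that ties a column to an individual animal, and p-values therefore measure the spread between these 4 samples of a group. A whole muscle holds fibres, satellite cells, fibroblasts, vessels, nerve and immune cells, and in such bulk RNA fewer cells of a type and less RNA per cell cannot be told apart. Within each group, samples are numbered 1 to 4 in the order of the table's columns.

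A skeletal muscle fibre that loses its nerve spreads acetylcholine receptors over its whole surface, switches receptor subunits to those of the embryo and shrinks as proteins of the contractile apparatus are taken apart. The ubiquitin-proteasome system, in which E3 ligases such as MuRF1 (Trim63) mark sarcomere proteins for breakdown, and the lysosomal pathway both carry this loss. Myostatin, follistatin and TGF-beta family signals set fibre size from outside the cell, while macrophages and other immune cells enter the tissue early after denervation.

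The 8 libraries held 15534909 to 17473355 recovered fragments at 7 d and 16615477 to 17561584 at 14 d. Pearson's r across 12092 genes whose FPKM averaged 1 or more lay between 0.974 and 0.989 for samples of the same time point and between 0.974 and 0.986 for samples of different time points, with genes that are not independent replicates. The 7 d samples differed more among themselves (median SD of a gene 0.153 on the log2 scale) than the 14 d samples (0.11). Mitochondrial genes took 6.7% to 11.3% of the fragments at 7 d and 7.27% to 9.28% at 14 d (exact permutation test, two-sided, p = 0.571, smallest possible 0.0286). One protocol text in the labels names retinas. The rod genes Gnat1 and Pde6b reached at most 0.0564 and 0.0599 FPKM in the 8 samples, whereas the muscle genes Acta1, Ckm and Des had at least 9163, 900.5 and 1237 FPKM.

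On the log2(FPKM + 1) scale, 79 genes (0.426% of those tested) were higher and 79 (0.426%) were lower at 14 d at an adjusted p under 0.05 (limma, Benjamini-Hochberg over 18551 genes), 158 genes or 0.852% in all. With a difference of at least 1.5-fold in addition, 52 genes were higher (0.280%) and 43 lower (0.232%), together 0.512%. The 158 genes all had groups that did not overlap, which held for 7.89% of the genes tested. An unadjusted p under 0.05 was reached by 1109 genes (5.98%) in the higher and 1054 genes (5.68%) in the lower direction. The median gene did not shift, with a median log2 difference of 0.009 over all genes tested. Adding 1 before the logarithm understates the change of genes with low FPKM. The number called depended on single samples: leaving out 1 of the 8 in turn gave 38 to 77 higher and 16 to 72 lower genes, and 44 of the 158 genes (31 higher, 13 lower) passed in each of these 8 fits. No called gene changed sign in any of the 18 other fits. The values of each gene in the text below are FPKM, means are given ± SD with n = 4, and the differences are log2(FPKM + 1) at 14 d minus 7 d with the standard error of the limma fit.

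**Figure D1:**
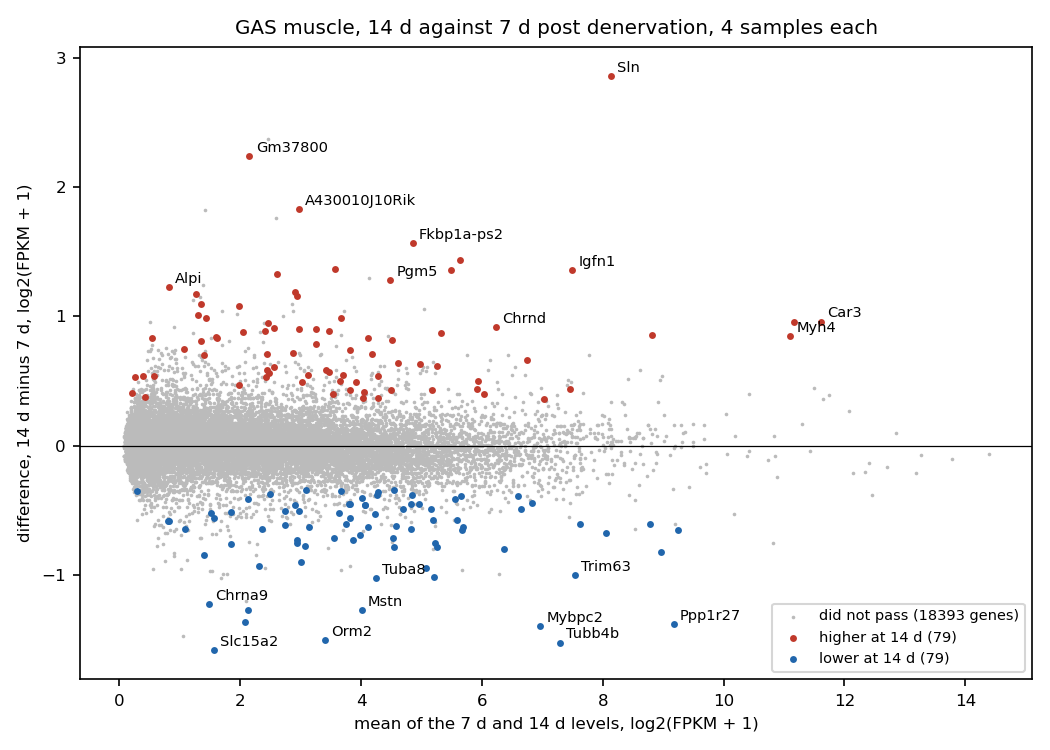
Each point is 1 of the 18551 genes, with its level averaged over 7 d and 14 d on the horizontal axis and its log2(FPKM + 1) difference, 14 d minus 7 d, on the vertical axis. The 79 higher genes (red) and 79 lower genes (blue) are found at low and at high levels, and Sln is highest of the genes that passed, with a difference of 2.86.

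**Figure D2:**
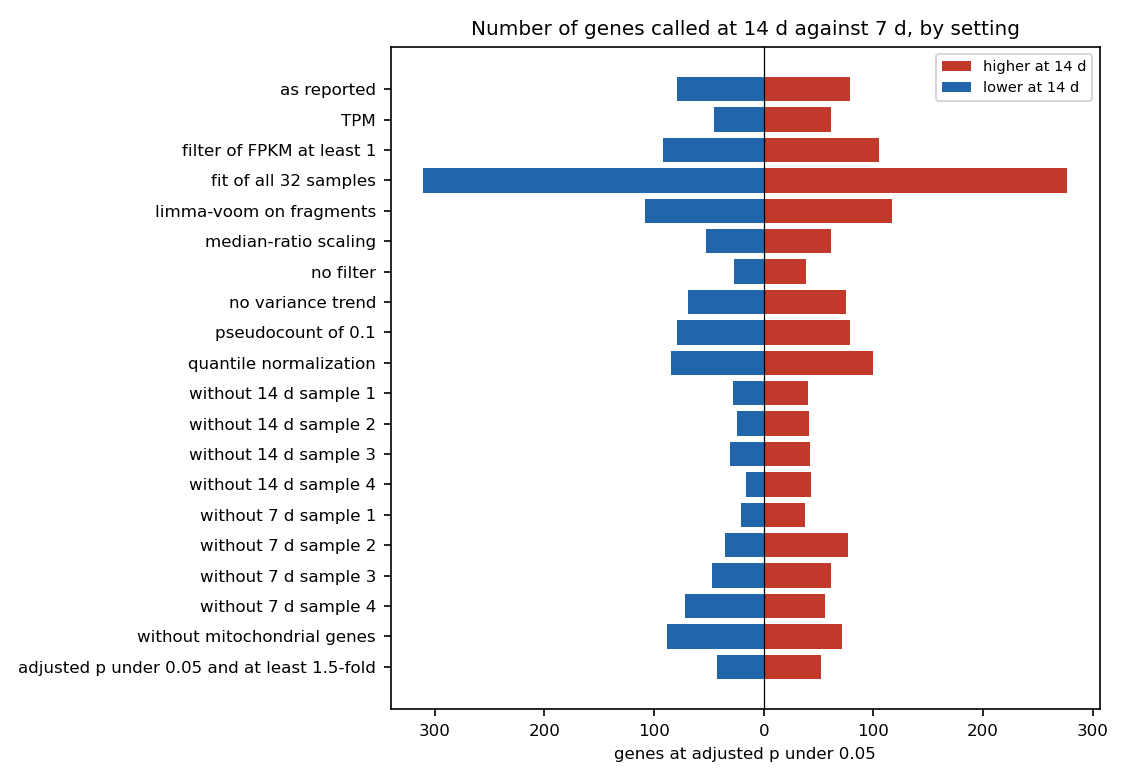
Bars give the number of genes higher (red, right) and lower (blue, left) at 14 d at an adjusted p under 0.05, as reported and under each other setting. The counts ran from 38 higher without 7 d sample 1 and 16 lower without 14 d sample 4 to 277 higher and 311 lower in the fit of the 32 samples.

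On the log2(FPKM + 1) scale the largest rise was that of Sln on chr9:53850164-53854560, sarcolipin, a small membrane protein that inhibits the calcium pump of the sarcoplasmic reticulum. Its 7 d samples held 96.3, 111, 100.3 and 86.7 FPKM and its 14 d samples 1253, 936, 538 and 429 FPKM, against 3.45 ± 1.77 at 0 d. The 2 groups lay far apart, and the 14 d samples differed among themselves more than the 7 d samples did. The mean ratio was 8.01, below those of Alpi (11.5), Robo2 (10.3) and Gm37800 (8.36), which had lower levels (difference 2.86, SE 0.3, adjusted p = 0.00404), and the call held in each fit that left out 1 sample. Atp2a1, the fast-fibre calcium pump that sarcolipin binds, had 2361 ± 235 FPKM at 7 d and 2660.2 ± 288 at 14 d and did not pass (adjusted p = 0.678).

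Among single genes of the sarcomere and the cell membrane that rose, Igfn1 and Pgm5 were among the 12 largest rises, and Tmem252, Myom3 and Sspn were picked after their values were seen. Igfn1, an immunoglobulin-like and fibronectin type III domain protein of the Z-disc, had 104, 85.6, 122 and 138 FPKM at 7 d and 294, 263, 309 and 278 FPKM at 14 d, starting from 3.56 ± 2.55 at 0 d. All of its 14 d samples exceeded all of its 7 d samples (difference 1.36, SE 0.14, adjusted p = 0.00338). Pgm5 (aciculin), a phosphoglucomutase relative found at cell-matrix junctions of muscle, had little spread within groups, with 12.8, 14.8, 13.1 and 12.7 FPKM at 7 d and 34.3, 31.7, 32.1 and 37 FPKM at 14 d (difference 1.28, SE 0.07, adjusted p = 0.000214). Its neighbour Tmem252, which lies 783 bases away on the other strand, rose from 4.69 ± 0.327 to 8.4 ± 0.786 FPKM (adjusted p = 0.00555). Myom3, an M-band protein, rose from 84.8 ± 11 to 135 ± 17.2 FPKM (adjusted p = 0.0341), a call lost in 7 of the 8 fits without 1 sample (adjusted p up to 0.111). Sspn, a member of the dystrophin-associated complex, rose from 18.6 ± 1.37 to 25.3 ± 1.05 FPKM (adjusted p = 0.0254, up to 0.0912 in the 6 such fits in which it was lost).

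Enzymes of several pathways and an actin-binding protein were also among the 12 genes with the largest rises. Hpgd, which inactivates prostaglandin E2, had 31.1, 36.9, 20.9 and 27.3 FPKM at 7 d and 64.5, 72.6, 121 and 68.1 at 14 d, with 14 d sample 3 far above the other samples. Its difference of 1.44 (SE 0.22, adjusted p = 0.0226) did not pass in 4 of the 8 fits without 1 sample (adjusted p up to 0.0649). Ass1, argininosuccinate synthase of the urea and arginine cycle, had 4.94, 4.2, 3.35 and 3.52 FPKM at 7 d and 11, 11.1, 8.66 and 10.7 FPKM at 14 d (difference 1.19, SE 0.12, adjusted p = 0.00314). Aif1l, an actin-bundling protein, went from 26.7 ± 2.76 to 71.1 ± 16.9 FPKM (difference 1.36, SE 0.15, adjusted p = 0.00545). Alpi, an alkaline phosphatase best known from the intestine, was listed at 0 in each 0 d sample and had 0.204, 0.122, 0.102 and 0.165 FPKM at 7 d and 2.27, 1.6, 1.26 and 1.73 FPKM at 14 d. The 7 d values of Alpi rest on 4 to 8 fragments per sample and the 14 d values on 50 to 93 (difference 1.23, SE 0.11, adjusted p = 0.00215).

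**Figure D3:**
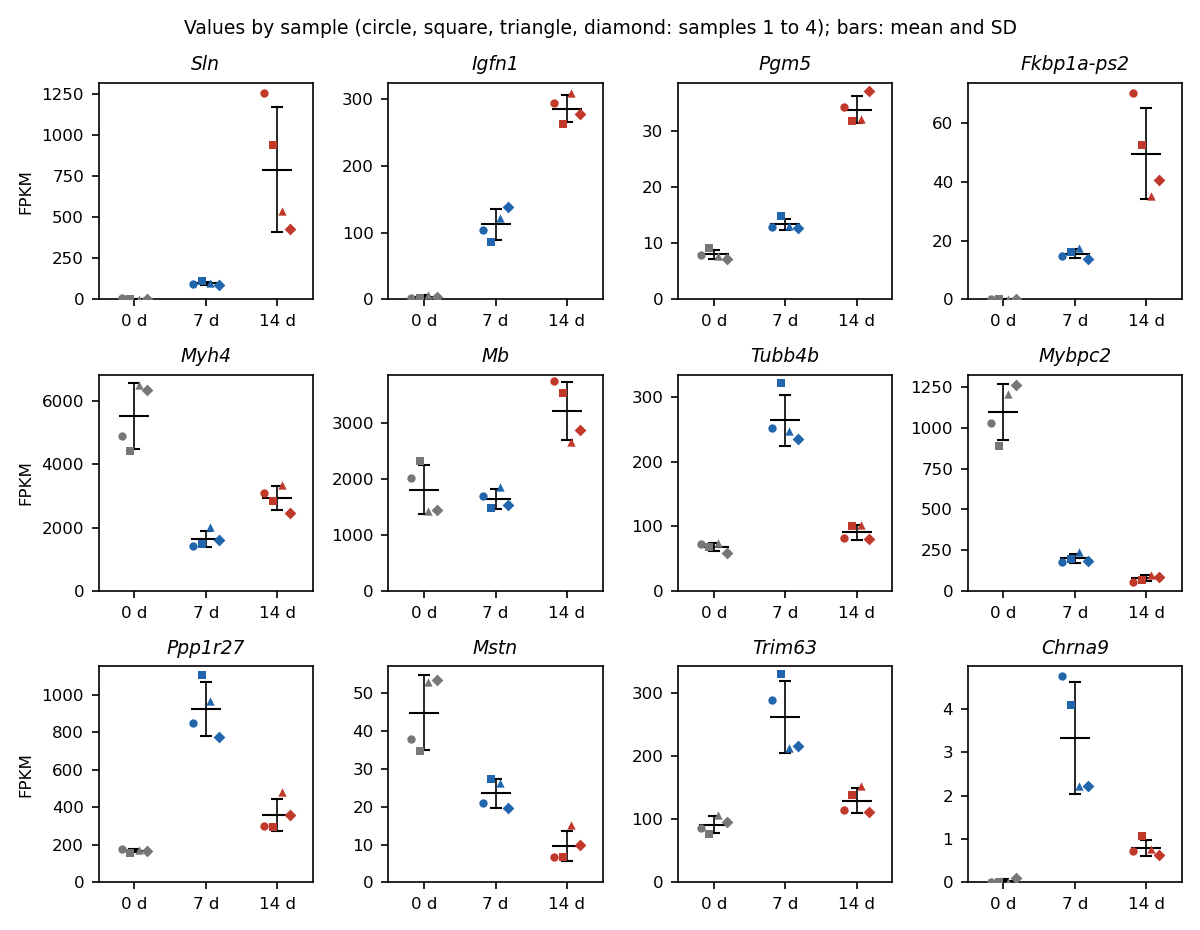
FPKM of 12 genes in the 4 samples of 0 d (grey), 7 d (blue) and 14 d (red), each panel on its own linear axis from 0, with the mean and SD as bars. Sln, Igfn1, Pgm5 and Fkbp1a-ps2 rose from 7 d to 14 d, Tubb4b, Mybpc2, Ppp1r27, Mstn, Trim63 and Chrna9 fell, and Myh4 and Mb rose with 0 d levels on different sides of their 14 d levels.

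Long noncoding transcripts supplied 4 of the 12 largest rises. Gm37800, a long intergenic RNA on chr1:184610280-184629473, had 1.14, 1.04, 0.898 and 1.1 FPKM at 7 d and 8.01, 8.85, 7.44 and 10.6 FPKM at 14 d. No 0 d sample held more than 1 of its fragments, and it had the smallest adjusted p of the whole comparison (difference 2.24, SE 0.11, adjusted p = 7.24e-05). A430010J10Rik, on chr6:67115673-67168426, went from 3.16 ± 0.639 to 13.8 ± 2.43 FPKM (difference 1.83, SE 0.14, adjusted p = 0.00108). Gm45881 rose from 2.88 ± 0.908 to 8.68 ± 1.71 FPKM (adjusted p = 0.0118) and Gm34006 from 6.45 ± 2.46 to 18.1 ± 4.8 FPKM (adjusted p = 0.0326). The call of Gm34006 was lost in 7 of the 8 fits without 1 sample (adjusted p up to 0.108). Over all genes tested, 17 of 2535 long noncoding genes were higher and 2 lower, 0.75% called, whereas 56 of 14038 protein-coding genes were higher and 71 lower, 0.905% called.

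Fkbp1a-ps2 is a processed pseudogene of Fkbp1a on chr10:21410263-21410573, and reads of the 2 genes can be hard to tell apart. It was listed at 0 in the 4 samples of 0 d, had 14.8, 16, 17.6 and 13.9 FPKM at 7 d and reached 70.1, 52.6, 35.1 and 40.6 FPKM at 14 d (difference 1.57, SE 0.19, adjusted p = 0.00724). Fkbp1a itself, the calcineurin-binding immunophilin FKBP12 that also sits on the ryanodine receptor, had 43.6 ± 3.43 FPKM at 7 d and 43.1 ± 2.32 at 14 d (difference -0.01, SE 0.07, adjusted p = 0.977), so the parent gene did not pass the test. Aldh8a1, which lies 13678 bases from the pseudogene, also passed in the higher direction (difference 0.38). The ranking of the 14 d samples was alike in several genes: samples 1 and 2 stood above samples 3 and 4 for Sln, Fkbp1a-ps2, Gm34006, Aif1l and Mb, and below them for Mstn and Mybpc2. These genes were picked for that order after their values were seen.

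At the neuromuscular junction, 2 receptor subunits rose further. Of 22 genes of the acetylcholine receptor and the junction, 2 were higher, none was lower and the median difference was 0.15, against 0.009 over all genes tested, of which 0.426% were higher. At an unadjusted p under 0.05, 6 of the 22 were higher (27.3%, against 5.98% of all genes tested) and 0 lower (against 5.68%). Chrnd, the delta subunit, had 60.3, 56.5, 50.4 and 47.5 FPKM at 7 d and 118, 101, 93.8 and 95.7 FPKM at 14 d (difference 0.92, SE 0.1, adjusted p = 0.00487). Chrng, the gamma subunit of the embryonic receptor, had 31.9, 31, 28.4 and 28.5 FPKM at 7 d and 51, 45.1, 46.3 and 44.5 FPKM at 14 d (difference 0.62, SE 0.07, adjusted p = 0.00487). Neither pair of groups overlapped, and both levels were under 1 FPKM at 0 d (0.895 ± 0.0853 and 0.0394 ± 0.0425). In a fit of the 32 samples Chrng did not pass (adjusted p = 0.0935).

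The other muscle subunits moved less. Chrna1, the alpha subunit that binds acetylcholine, had 161, 186, 195 and 148 FPKM at 7 d and 229.6, 197, 192 and 194 FPKM at 14 d, groups that overlapped (difference 0.24, SE 0.1, adjusted p = 0.412). Chrnb1 (adjusted p = 0.622), the adult epsilon subunit Chrne (0.602) and the receptor kinase Musk (0.913) did not pass either. Musk stood at 64.3 ± 6.97 FPKM at 7 d and 62.1 ± 2.39 at 14 d, against 9.75 ± 1.99 at 0 d. Chrna9, a subunit best known from hair cells of the inner ear, went the other way. It had 4.75, 4.09, 2.22 and 2.23 FPKM at 7 d and 0.715, 1.07, 0.776 and 0.636 FPKM at 14 d (difference -1.22, SE 0.2, adjusted p = 0.0266), and 6 of the 8 fits without 1 sample lost the call (adjusted p up to 0.0885).

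Chrnd and Chrng stand 4587 bases apart on chr1:87190607-87200070 and chr1:87204657-87212694, both on the plus strand, and Alpi lies 89001 bases before Chrnd on chr1:87098002-87101606. The stretch before the start of Chrng is shown because E-boxes, the sites that myogenic helix-loop-helix factors bind, are known from receptor subunit promoters. It comes from RefSeq (GRCm38.p6) and runs from 250 to 30 bases before the RefSeq start, which lies 1154 bases inside the GENCODE gene. Capitals mark CAGCTG, a palindrome read on both strands, which begins 155 and 132 bases before the start.
Chrng, chr1:87205561-87205781, plus strand: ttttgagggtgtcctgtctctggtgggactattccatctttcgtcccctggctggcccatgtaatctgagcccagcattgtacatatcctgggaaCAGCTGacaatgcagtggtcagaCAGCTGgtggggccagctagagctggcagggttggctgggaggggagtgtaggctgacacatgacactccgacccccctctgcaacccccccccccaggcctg
CAGCTG was present in 11.4% of the 32851 RefSeq windows of this length, in 18.6% of 70 windows of the higher genes and in 10.8% of 65 windows of the lower genes. The Chrna1 window, whose gene did not pass, also held it at 2 places. Chrnd had no RefSeq window here.

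Among 17 fast-fibre sarcomere genes 1 rose and 1 fell (median difference 0.09), where 0.426% of all genes tested rose and 0.426% fell. Of the 17, 4 were higher (23.5%, against 5.98%) and 1 lower (5.88%, against 5.68%) at an unadjusted p under 0.05. Among 14 slow-fibre genes (median 0.12) and 16 embryonic and neonatal isoforms (median -0.01) none passed. Myh4, the myosin heavy chain of the fastest fibres, had 1434, 1486, 2007 and 1617 FPKM at 7 d and 3083, 2853, 3353 and 2469.6 FPKM at 14 d, without overlap, compared with 5531 ± 1043 at 0 d. Its difference of 0.85 (SE 0.15, adjusted p = 0.0353) was lost with median-ratio scaling (adjusted p = 0.14) and in 7 of the 8 fits without 1 sample (up to 0.12). Mybpc2, the fast myosin-binding protein C, fell from 180.1, 196, 239.7 and 184 FPKM to 56.6, 65.9, 97.1 and 87.7 FPKM (difference -1.39, SE 0.17, adjusted p = 0.00782), with 1098 ± 170.5 FPKM at 0 d. Both genes belong to fast fibres, and they moved in opposite directions. Myh2, the heavy chain of fast oxidative fibres, had 419 ± 74.2 and 606 ± 84.7 FPKM in groups that overlapped (adjusted p = 0.146).

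Of 14 myofibre identity genes 1 was higher, none was lower and the median difference was -0.01, where 0.426% of all genes tested were higher. At an unadjusted p under 0.05, 4 were higher (28.6%, against 5.98%) and 1 lower (7.14%, against 5.68%). The gene that passed was Mb, the oxygen-binding myoglobin, which had 1693, 1470.1, 1857 and 1533 FPKM at 7 d and 3740.3, 3534, 2661 and 2872 FPKM at 14 d (difference 0.96, SE 0.14, adjusted p = 0.0219), although with median-ratio scaling its adjusted p was 0.082 and 5 of the 8 fits without 1 sample lost it (up to 0.0782). Car3, carbonic anhydrase 3 of slow fibres and fat, had 2228 ± 178 and 4363 ± 528 FPKM (difference 0.96, SE 0.13, adjusted p = 0.0134), and was lost without 7 d sample 1 (adjusted p = 0.0519) and with quantile normalization (difference 0.64, adjusted p = 0.075). Ckm, the muscle creatine kinase, had 1381 ± 142 and 952 ± 67.6 FPKM in groups that did not overlap, and did not pass (difference -0.53, adjusted p = 0.0566). Ckm did pass with TPM (0.0377), a filter of 1 FPKM (0.0242), no variance trend (0.0358), limma-voom (0.0106), without mitochondrial genes (0.0362) and in the fit of the 32 samples (0.0051). Ppp1r27, a regulatory subunit of protein phosphatase 1, fell from 852, 1107, 969 and 774 FPKM to 299.6, 294, 482 and 361 FPKM, the 0 d level being 169 ± 9.22 (difference -1.38, SE 0.17, adjusted p = 0.00936). Popdc2, a cyclic AMP-binding membrane protein of striated muscle, fell from 28.7 to 18.4 FPKM on average (adjusted p = 0.00555). Kcnj11, the pore of the ATP-sensitive potassium channel, fell from 28.4 ± 4.02 to 17 ± 2.2 FPKM (adjusted p = 0.0271), a call lost in 6 of the 8 fits without 1 sample (up to 0.0897).

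Tubulins, the building blocks of microtubules, were lower in several cases. Of 14 alpha and beta tubulin genes tested, 5 were lower and none higher, with a median difference of -0.31, where 0.426% of all genes tested were lower. This family was drawn up after the values were seen. Tubb4b fell from 253, 322, 247 and 235 FPKM at 7 d to 81.4, 100.1, 102 and 80.8 FPKM at 14 d (difference -1.52, SE 0.12, adjusted p = 0.00111), and its 14 d values lay above the 68.2 ± 6.57 FPKM of 0 d. The pseudogene Tubb4b-ps1, which shares sequence with it, fell from 5.79 ± 0.32 to 1.81 ± 0.167 FPKM (adjusted p = 0.000232). Tuba4a fell from 660.4 ± 89.9 to 374 ± 52 FPKM (adjusted p = 0.0226) and overlaps an antisense gene over 1379 exon bases, and the strand setting of the count is not given in the sources used here.

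Tuba8 differed from the other fallen tubulins in its 0 d level. It had 72 ± 7.19 FPKM at 0 d, 26.7, 29.3, 25.3 and 22.4 FPKM at 7 d and 11.2, 15.2, 12.4 and 10.7 FPKM at 14 d (difference -1.02, SE 0.12, adjusted p = 0.00555), whereas the others had 7 d levels above their 0 d levels. Tubb6 fell from 108 ± 14.5 to 62.1 ± 11.2 FPKM (adjusted p = 0.0353) and Tubb2a from 47.7 ± 5.92 to 28 ± 3.59 FPKM (adjusted p = 0.0201). The calls of Tuba4a, Tubb2a and Tubb6 were lost in 5, 5 and 6 of the 8 fits without 1 sample, with adjusted p up to 0.0797, 0.0738 and 0.101. Tubb5, with 50.1 ± 8.19 and 34.6 ± 3.97 FPKM, did not overlap between the groups and did not pass (adjusted p = 0.118), although it did with median-ratio scaling (0.0432) and without 7 d sample 3 (0.0485). Map1b, a protein that binds microtubules, rose from 9.91 ± 1.4 to 17.1 ± 1.77 FPKM (adjusted p = 0.0191), and was lost in 4 of those fits (up to 0.0684).

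**Figure D4:**
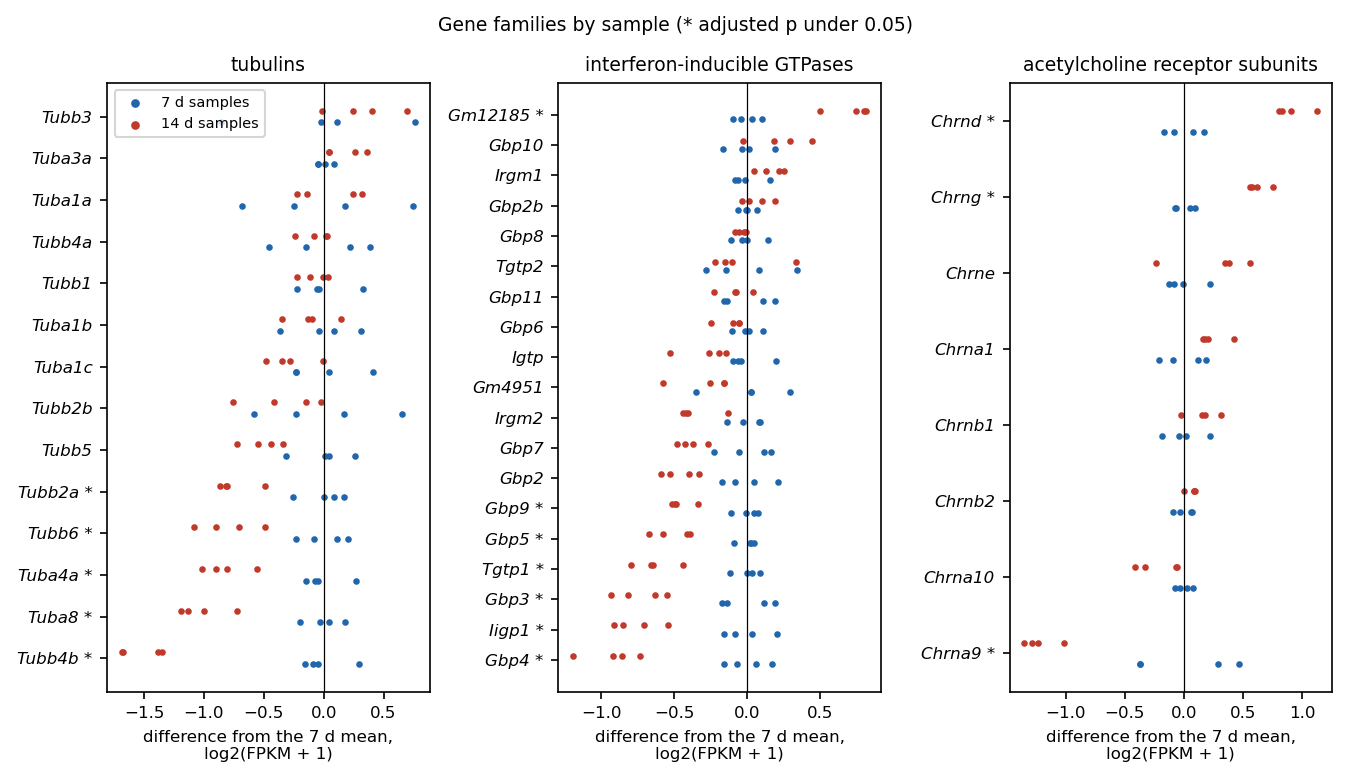
Each row is a gene and each point 1 sample (7 d blue, 14 d red), plotted as the log2(FPKM + 1) difference from the gene's 7 d mean, with an asterisk for an adjusted p under 0.05. Tubulins (5 of 14 lower) and interferon-inducible GTPases (6 of 19 lower, 1 higher) have rows in which the 14 d points lie left of all 7 d points, and the receptor subunits Chrnd and Chrng have them on the right.

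Of 19 ubiquitin ligases of atrophy 1 was lower (median difference -0.03), where 0.426% of all genes tested were lower. Without adjustment, 4 of the 19 were lower (21.1%, against 5.68%) and 2 higher (10.5%, against 5.98%) at a p under 0.05. The gene that passed was Trim63, MuRF1, a ligase of thick-filament proteins. It had 289, 329.8, 212 and 216 FPKM at 7 d and 114, 138, 153 and 112 FPKM at 14 d, compared with 91.4 ± 13.3 FPKM at 0 d (difference -1.0, SE 0.16, adjusted p = 0.0276, exact permutation p = 0.0286, the smallest possible). The groups were separate, but 5 of the 8 fits without 1 sample lost the call, without 7 d samples 1 and 2 and without 14 d samples 1, 2 and 4, with adjusted p between 0.0521 and 0.0947. Fbxo32 (atrogin-1), the other ligase commonly measured in atrophy, was listed at low levels of 1.34 ± 0.338 FPKM at 7 d and 0.928 ± 0.482 at 14 d and did not pass (adjusted p = 0.559, exact permutation p = 0.171).

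Of 34 proteasome subunits, 1 was lower and none higher. This was Psmd11, a lid subunit of the 19S particle, which fell from 51.4, 57.1, 55.4 and 50.3 FPKM to 40.5, 39.6, 40.8 and 39.2 FPKM (difference -0.41, SE 0.06, adjusted p = 0.0184), and whose call was lost in 5 of the 8 fits without 1 sample (up to 0.0738). The median difference of the 34 subunits was -0.19, against 0.009 over all genes tested, and 16 of them (47.1%, against 5.68% of all genes tested) had an unadjusted p under 0.05 in the lower and 0 (against 5.98%) in the higher direction. The core subunits Psma7, Psmb2 and Psma4 had adjusted p of 0.0672, 0.0705 and 0.0713. Of 28 lysosomal proteins 1 fell (median -0.15), the protease cathepsin L (Ctsl), from 118 ± 2.49 to 84.3 ± 10.5 FPKM (adjusted p = 0.0424). In the list, 7 of the 28 were lower (25%, against 5.68% of all genes tested) and 0 higher (against 5.98%) at an unadjusted p under 0.05. The call of Ctsl was lost in each of the 8 fits without 1 sample (up to 0.136), and it overlaps an antisense gene over 1742 exon bases. Among 26 autophagy genes none passed (smallest adjusted p = 0.288, 1 lower and 0 higher at an unadjusted p under 0.05).

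Of 32 TGF-beta, activin and BMP genes 1 was higher and 1 lower (median difference 0.03), where 0.426% of all genes tested rose and 0.426% fell. Of the 32, 3 were higher (9.38%, against 5.98%) and 1 lower (3.12%, against 5.68%) at an unadjusted p under 0.05. Tgfb1, the ligand itself, had 6.03, 6.1, 5.47 and 7.66 FPKM at 7 d and 10.8, 12.4, 12.3 and 11 FPKM at 14 d (difference 0.79, SE 0.1, adjusted p = 0.00843). Mstn, myostatin, the inhibitor of muscle growth, had 20.9, 27.4, 26.4 and 19.8 FPKM at 7 d and 6.63, 6.81, 15.1 and 9.86 FPKM at 14 d, with 44.8 ± 9.94 FPKM at 0 d. Its groups did not overlap (difference -1.27, SE 0.23, adjusted p = 0.0417), but the call was lost in 7 of the 8 fits without 1 sample (up to 0.118) and with median-ratio scaling (adjusted p = 0.0591). Fst, follistatin, which binds myostatin and activin, had 3.6, 6.8, 2.6 and 3.9 FPKM at 7 d and 9.36, 8.11, 8.97 and 10.8 FPKM at 14 d, and did not pass (difference 1.04, SE 0.21, adjusted p = 0.0622). It passed without 7 d sample 2 (adjusted p = 0.0105), with quantile normalization (0.0409), with a filter of 1 FPKM (0.044), by limma-voom (0.021) and in the fit of the 32 samples (0.000479).

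Genes that interferons induce had the lowest median of the 39 functional lists. Of 26 interferon-stimulated genes 2 were lower and none higher, with a median difference of -0.36, and 9 of them (34.6%, against 5.68% of all genes tested) had an unadjusted p under 0.05 in the lower and 0 (against 5.98%) in the higher direction. Gbp3, a guanylate-binding protein that acts on membranes around intracellular pathogens, had 10.3, 7.98, 7.77 and 9.7 FPKM at 7 d and 5.74, 4.6, 5.38 and 4.18 FPKM at 14 d (difference -0.73, SE 0.12, adjusted p = 0.0253). Iigp1, an immunity-related GTPase, had 9.14, 8.33, 7.88 and 10.4 FPKM at 7 d and 4.47, 5.06, 5.8 and 4.26 FPKM at 14 d (difference -0.75, SE 0.11, adjusted p = 0.0184). At 0 d the means were 3.6 ± 0.345 FPKM for Gbp3 and 3.5 ± 0.39 for Iigp1, and each 14 d sample still lay above each 0 d sample. Their calls were lost in 5 and 4 of the 8 fits without 1 sample (up to 0.0868 and 0.0635).

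Relatives of these GTPases were taken by their symbols after the values were seen, and most did not pass. Of 11 Gbp genes tested 4 fell and none rose, and of 8 immunity-related GTPase genes 2 fell and 1 rose, where 0.426% of all genes tested fell and 0.426% rose. Gbp4 fell from 5.83 ± 0.689 to 2.6 ± 0.467 FPKM (difference -0.93, SE 0.12, adjusted p = 0.00913), and this call held in each fit without 1 sample. Gbp5 fell from 3.28 ± 0.182 to 2.01 ± 0.279 FPKM (adjusted p = 0.0374) and Gbp9 from 7.75 ± 0.482 to 5.37 ± 0.366 FPKM (adjusted p = 0.0254), with the calls lost in 8 and 6 of those fits (up to 0.123 and 0.0951). Gbp4 and Gbp9 overlap on the same strand of chromosome 5, so their reads may be split uncertainly. Gbp2 and Gbp7 had adjusted p of 0.0775 and 0.143, and Gbp7 passed with quantile normalization (0.0468). Of the immunity-related GTPases Tgtp1 fell beside Iigp1, from 1.66 ± 0.155 to 0.713 ± 0.175 FPKM (adjusted p = 0.0201, lost in 4 of the 8 fits, up to 0.0738). Gm12185, whose annotated span overlaps that of Tgtp1 on the minus strand of chromosome 11, rose from 3.26 ± 0.258 to 6.01 ± 0.683 FPKM (adjusted p = 0.0107).

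Cxcl10, a chemokine that interferon-gamma induces and that draws T cells, was the single one of 26 chemokines and receptors that passed. It had 3.23, 2.34, 1.93 and 2.57 FPKM at 7 d and 0.48, 1.25, 1.2 and 0.935 FPKM at 14 d, on 73 to 122 and 19 to 49 fragments (difference -0.84, SE 0.16, adjusted p = 0.0493). Leaving out any of the 8 samples lost this call (adjusted p up to 0.137), and so did the fit of the 32 samples (0.244). Over all genes tested, 0.426% were lower at an adjusted p under 0.05. Of the 26 chemokines and receptors, 3 were lower (11.5%, against 5.68%) and 1 higher (3.85%, against 5.98%) at an unadjusted p under 0.05. Summed macrophage markers (16 genes, none at 0 throughout a group) ranged from 362 to 1161 FPKM at 7 d and from 369 to 913 at 14 d, and no marker of that list passed. Lyz2 made up most of that sum (difference -0.06), and 14 of the 16 markers had a difference below 0 (median -0.13, lowest -0.62 for Cd68). The part of immune cell number in the interferon-inducible genes was not tested. None of the 20 MHC and immunoproteasome genes passed (median difference -0.02, 9 above and 11 below 0). Of the 20, 3 were lower (15%, against 5.68% of all genes tested) and 0 higher (against 5.98%) at an unadjusted p under 0.05. These were Tap1 (-0.41), Psmb9 (-0.25) and Nlrc5 (-0.19).

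Windows from 250 to 30 bases before the RefSeq starts (GRCm38.p6) are shown for the lower genes of this set that had one, since interferon-responsive elements are built on repeats of GAAA. Capitals mark a pair of GAAA with any 2 bases between them, searched on both strands and so also seen as TTTC, and TTCNNNGAA, the spaced palindrome bound by STAT factors.
Gbp3, chr3:142559794-142560014, plus strand: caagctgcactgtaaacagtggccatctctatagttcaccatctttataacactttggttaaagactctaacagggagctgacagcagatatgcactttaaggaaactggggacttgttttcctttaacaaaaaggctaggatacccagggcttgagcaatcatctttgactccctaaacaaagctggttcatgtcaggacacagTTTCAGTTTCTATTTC
Gbp5, chr3:142496684-142496904, plus strand: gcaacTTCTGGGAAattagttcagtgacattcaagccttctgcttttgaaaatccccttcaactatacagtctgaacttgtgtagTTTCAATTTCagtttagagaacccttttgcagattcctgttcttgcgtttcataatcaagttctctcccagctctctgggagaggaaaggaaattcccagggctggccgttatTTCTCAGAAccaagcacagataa
Tgtp1, chr11:48992276-48992496, minus strand: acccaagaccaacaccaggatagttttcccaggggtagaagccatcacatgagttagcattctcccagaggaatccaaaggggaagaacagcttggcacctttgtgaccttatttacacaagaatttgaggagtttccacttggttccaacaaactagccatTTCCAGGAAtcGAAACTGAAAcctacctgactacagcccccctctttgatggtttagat
Cxcl10, chr5:92348919-92349139, minus strand: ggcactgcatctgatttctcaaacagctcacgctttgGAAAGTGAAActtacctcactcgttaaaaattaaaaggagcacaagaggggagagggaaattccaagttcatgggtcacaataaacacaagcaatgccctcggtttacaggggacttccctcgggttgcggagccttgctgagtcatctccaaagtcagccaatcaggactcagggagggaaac
The 4 windows each held the GAAA pair, at 2 overlapping places, 45 and 39 bases before the start in Gbp3, and at 165 bases in Gbp5, 77 bases in Tgtp1 and 213 bases in Cxcl10. Of the 32851 windows, 2.63% held it, and among the 65 windows of the lower genes these 4 were the ones that did (6.15%). It was in 3 of 70 windows of the higher genes (4.29%), that of Gm12185 among them. Gbp2 and Gbp7 held it as well. TTCNNNGAA was found at 2 places in Gbp5 and at 1, next to the other motif, in Tgtp1, against 6.3% of all windows and 6.15% of those of the lower genes. The RefSeq starts of Gbp5 and Tgtp1 lie 2956 and 1926 bases inside the GENCODE genes. For Gbp4, Gbp9 and Iigp1 no window was shown.

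Of 20 acute-phase and IL-6 family genes 2 were lower, none was higher and 18 did not pass (median difference -0.08), where 0.426% of all genes tested were lower. Of the 20, 4 were lower (20%, against 5.68%) and 1 higher (5%, against 5.98%) at an unadjusted p under 0.05. Serpina3n, an inhibitor of serine proteases, fell from 55.4, 41, 40.1 and 45.4 FPKM to 17.6, 22.2, 25.8 and 28 FPKM (difference -0.94, SE 0.15, adjusted p = 0.0254), and its neighbour Serpina3m, 12472 bases away on chromosome 12, from 1.13 ± 0.146 to 0.431 ± 0.106 FPKM (adjusted p = 0.0191). They were lost in 5 and 4 of the 8 fits without 1 sample (up to 0.0868 and 0.0738). Orm2, an orosomucoid that carries lipids and drugs in plasma, was listed at 0 in each 0 d sample. It had 16.2, 13.6, 20.3 and 16.2 FPKM at 7 d and 5.22, 3.42, 5.84 and 6.76 FPKM at 14 d (difference -1.5, SE 0.17, adjusted p = 0.00657). Orm1, with 18.1 ± 3.08 and 9.33 ± 3.19 FPKM, did not pass (adjusted p = 0.111).

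Slc15a2, a proton-coupled peptide transporter, had the largest fall on the log2(FPKM + 1) scale. It had 3.5, 3.78, 5 and 3.7 FPKM at 7 d and 1.23, 1.53, 0.176 and 0.139 FPKM at 14 d, so that its 14 d samples formed a higher and a lower pair (difference -1.58, SE 0.26, adjusted p = 0.0306). The call was lost in 6 of the 8 fits without 1 sample (adjusted p up to 0.0842), with TPM (0.0627) and with a pseudocount of 0.1 (0.087). Stk40, a pseudokinase that serves a ubiquitin ligase, fell from 47.8, 64.2, 48.5 and 46.2 FPKM to 21.5, 26, 28.9 and 24 FPKM (difference -1.01, SE 0.12, adjusted p = 0.00724), with 22.4 ± 1.45 FPKM at 0 d. Gm26109, a small nucleolar RNA, fell from 5.77 ± 1.34 to 1.67 ± 0.662 FPKM (adjusted p = 0.0191) on 5 to 9 fragments at 7 d and 1 to 3 at 14 d, and did not pass by limma-voom on fragments (adjusted p = 0.154).

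Nuclear transport receptors, a family also drawn up after the values were seen, included 3 genes that fell. There were 23 importins and exportins tested, none rose, and their median difference was -0.1, where 0.426% of all genes tested fell. At an unadjusted p under 0.05, 7 were lower (30.4%, against 5.68% of all genes tested) and 1 higher (4.35%, against 5.98%). The exportin Xpo1, which carries proteins with a leucine-rich export signal, fell from 15.5 ± 1.03 to 11.1 ± 0.916 FPKM (adjusted p = 0.0326). The importin-alpha genes Kpna2 and Kpna4 fell from 17.6 ± 0.882 to 13.1 ± 0.473 FPKM (adjusted p = 0.0211) and from 35.5 ± 1.93 to 25.7 ± 2.21 FPKM (adjusted p = 0.0276). The calls of Xpo1, Kpna2 and Kpna4 were lost in 6, 5 and 7 of the 8 fits without 1 sample (up to 0.106, 0.0818 and 0.0982).

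None of 23 Atf4 and amino acid stress genes (median difference 0.02) or 21 endoplasmic reticulum chaperones (0.0) passed. Of 23 heat shock proteins Hspb1, a small chaperone of the cytoskeleton, fell from 542 ± 25.5 to 359 ± 34.2 FPKM (adjusted p = 0.0191, lost in 4 of the 8 fits without 1 sample, up to 0.0738, list median -0.09), where 0.426% of all genes tested fell. Among these heat shock proteins 4 were lower (17.4%, against 5.68%) and 1 higher (4.35%, against 5.98%) at an unadjusted p under 0.05. Of 23 oxidative stress and metallothionein genes Gpx3, a secreted glutathione peroxidase, rose from 331 ± 32.1 to 604 ± 74.7 FPKM (adjusted p = 0.0107), a call that held in each of those fits, while the list's median was -0.12. At an unadjusted p under 0.05, 4 of its members were higher (17.4%, against 5.98% of all genes tested) and 10 lower (43.5%, against 5.68%). Hmox1, the haem-degrading enzyme, had 27.2 FPKM at 7 d and 17.2 at 14 d on average and did not pass (adjusted p = 0.127). Cdkn1c, the imprinted cell cycle inhibitor p57, was the member that rose among 21 p53-linked and growth arrest genes (median 0.02) and among 17 imprinted growth genes (median 0.04), from 2.95 ± 0.272 to 6.74 ± 1.64 FPKM (adjusted p = 0.0239, lost in 7 of the 8 fits, up to 0.0749). Over all genes tested, 0.426% rose. The p53-linked list had 2 members higher and 2 lower (9.52% each) at an unadjusted p under 0.05. The imprinted list had 3 higher (17.6%) and 1 lower (5.88%), against 5.98% and 5.68% of all genes tested. None of 32 cell cycle genes passed (median -0.15, smallest adjusted p = 0.264).

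Energy metabolism showed single genes and no shared call. Of 26 glycolysis and glycogen enzymes 1 fell (median difference 0.08), Ugp2, which makes UDP-glucose for glycogen, from 240.5 ± 13.8 to 159 ± 22 FPKM (adjusted p = 0.0331, lost in 6 of the 8 fits without 1 sample, up to 0.112). At an unadjusted p under 0.05, 10 of the 26 were higher (38.5%, against 5.98% of all genes tested) and 4 lower (15.4%, against 5.68%). With 1 sample left out, the list's median moved between 0.04 and 0.15. None of 31 fatty acid oxidation and TCA cycle enzymes (median 0.04), 42 nuclear respiratory chain subunits (0.06) or 15 mitochondrial genome transcripts (-0.13) passed. Of the 31 enzymes, 6 were higher (19.4%, against 5.98%) and 1 lower (3.23%, against 5.68%) at an unadjusted p under 0.05. By the same measure 6 of the 42 subunits were higher (14.3%) and 0 lower, and the 15 transcripts had 0 in either direction. Outside these lists, Crat, carnitine acetyltransferase, rose from 50.3 ± 6.41 to 71.3 ± 4.91 FPKM (adjusted p = 0.0492), and Nmrk2, the muscle nicotinamide riboside kinase, from 16.2 ± 3.11 to 29.3 ± 4.11 FPKM (adjusted p = 0.0302). Ak1, adenylate kinase 1, rose from 115 ± 6.21 to 147 ± 7.56 FPKM (adjusted p = 0.0455), against 439 ± 9.66 FPKM at 0 d. These 3 calls were lost in 7, 7 and 8 of the 8 fits without 1 sample (up to 0.151, 0.0933 and 0.137). Of 26 cholesterol and lipid synthesis genes Fdft1, squalene synthase, fell from 16.2 ± 1.45 to 10.7 ± 0.431 FPKM (adjusted p = 0.0119), and it was lost without 14 d sample 4 (0.0514) and without 7 d sample 1 (0.0501). The list's median was 0.08, and 0.426% of all genes tested fell. Its members were higher in 4 cases (15.4%, against 5.98%) and lower in 1 (3.85%, against 5.68%) at an unadjusted p under 0.05.

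The study's inflammasome and pyroptosis molecules did not pass between 7 d and 14 d. This is another contrast than the study's, which set 14 d to 28 d against sham muscle by PCR, Western blot and ELISA. Mean levels at 0 d were 0.0633 FPKM for Nlrp3, 0.901 for Casp1, 3.04 for Gsdmd, 0.18 for Pycard, 0.0595 for Il1b and 1.82 for Il18. Each lay below the gene's 7 d and 14 d means, and 14 d was not tested against 0 d here. Nlrp3, the sensor, had 0.25, 0.24, 0.103 and 0.301 FPKM at 7 d and 0.295, 0.326, 0.246 and 0.341 FPKM at 14 d, overlapping values on 7 to 23 fragments per sample (difference 0.09, SE 0.07, adjusted p = 0.682, exact permutation p = 0.171). Casp1, the caspase it activates, had 1.85 ± 0.568 and 1.7 ± 0.473 FPKM (exact permutation p = 0.657), and Gsdmd, the pore-forming gasdermin, 4.81 ± 1.41 and 4.46 ± 0.558 FPKM (0.743). The adaptor Pycard had 0.574 ± 0.199 and 0.412 ± 0.0867 FPKM (0.229). Il1b, an inflammasome cytokine, had 0.625, 0.39, 0.219 and 0.911 FPKM at 7 d and 0.149, 0.362, 0.308 and 0.221 FPKM at 14 d (difference -0.27, SE 0.13, exact permutation p = 0.143), and Il18 2.57 ± 0.983 and 2.33 ± 0.586 FPKM (adjusted p = 0.946). In each of these genes the 7 d samples 1 and 4 stood above 7 d sample 3. The summed macrophage markers had that order too, with 807, 433, 362 and 1161 FPKM in 7 d samples 1 to 4 and 369, 560.4, 539 and 913 at 14 d, and their part in these values was not tested. Panx1, a membrane channel that releases ATP, was the member that passed among 24 inflammasome and pyroptosis genes (median -0.07), with 9.63, 12.4, 9.76 and 8.24 FPKM at 7 d and 6.19, 6.54, 6.16 and 5.44 FPKM at 14 d (difference -0.63, SE 0.11, adjusted p = 0.0408, lost in 6 of the 8 fits without 1 sample, up to 0.123). Over all genes tested, 0.426% were lower at an adjusted p under 0.05. Of the 24, 1 was higher (4.17%, against 5.98%) and 2 lower (8.33%, against 5.68%) at an unadjusted p under 0.05, near the shares of all genes tested.

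**Figure D5:**
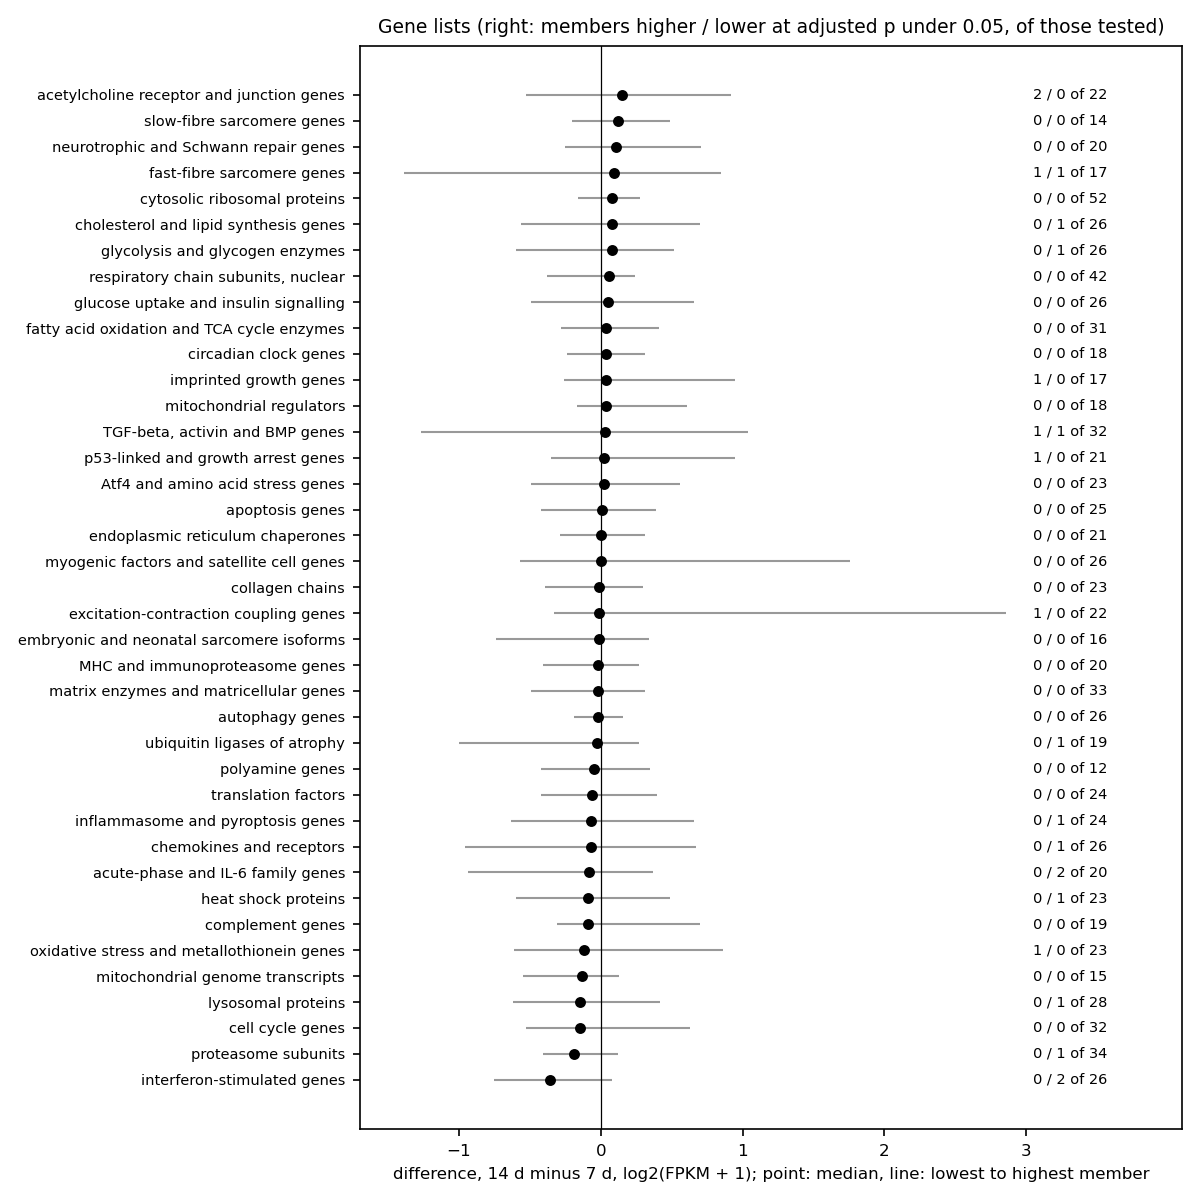
Each row is 1 of 39 functional gene lists, with the median log2(FPKM + 1) difference of its members (point), the span from the lowest to the highest member (line) and, at the right, the members higher and lower at an adjusted p under 0.05 of those tested. Medians ran from -0.36 for interferon-stimulated genes to 0.15 for acetylcholine receptor and junction genes, and no list had more than 2 members called.

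Lists of the matrix and of protein synthesis were among those without a call. None of 23 collagen chains (median difference -0.01, smallest adjusted p = 0.589), 33 matrix enzymes and matricellular genes (-0.02), 52 cytosolic ribosomal proteins (0.08), 24 translation factors (-0.06), 19 complement genes (-0.09) or 25 apoptosis genes (0.01) passed. At an unadjusted p under 0.05, collagens and complement had 0 members in either direction, the ribosomal proteins 4 higher and 0 lower, and the translation factors 1 higher and 7 lower, where all genes tested had 5.98% higher and 5.68% lower. Among 26 myogenic factors and satellite cell genes none passed (median 0.0). Of these 26, 6 were higher (23.1%, against 5.98% of all genes tested) and 2 lower (7.69%, against 5.68%) at an unadjusted p under 0.05. Mymx, the fusion peptide myomixer, had the largest difference in that list, with 2.38, 2.01, 1.22 and 2.63 FPKM at 7 d and 19.8, 12.6, 6.92 and 3.87 FPKM at 14 d (difference 1.76, SE 0.39, adjusted p = 0.088). Its groups did not overlap, but the 14 d samples spread widely, and it passed without 14 d sample 4 (adjusted p = 0.04) and in the fit of the 32 samples (0.000479).

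Markers of other cell types were summed per sample to show how the tissue's make-up varied. Sums of satellite cell markers (60.9 to 81.7 FPKM at 7 d, 65.3 to 70 at 14 d), endothelial markers (248 to 319.6 and 275 to 334), Schwann and myelin markers (32.9 to 97.6 and 44.4 to 73.7) and fibro-adipogenic progenitor markers (743 to 1279 and 1057 to 1507) overlapped between the time points. The 15 adipocyte markers, 1 of them at 0 in each group, summed to 2386 to 2697 FPKM at 7 d and 4164 to 5865 at 14 d without overlap. Car3, which muscle fibres also express, made up most of that sum, and without it the ranges were 227 to 343 and 238 to 751 FPKM. Of the 14 adipocyte markers tested, Car3 included, 13 had a difference above 0 and the median was 0.55, against 0.009 over all genes tested, with 1 of them passing. Whether fat content takes part in the rise of Car3 was not tested. Erythrocyte markers ranged from 149.6 to 403 and from 269 to 468 FPKM. All 6 erythrocyte markers tested had a difference above 0 (median 0.53), none passed, and 2 (33.3%, against 5.98% of all genes tested) were higher at an unadjusted p under 0.05. The 14 myofibre identity genes summed to 32635 to 36887 FPKM at 7 d and 33237 to 34783 at 14 d.

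Robo2, Emb and Hlx, 3 genes outside the lists that were picked after their values were seen, also rose. Robo2, a Slit receptor known from axon guidance, had 0.109, 0.0708, 0.0596 and 0.133 FPKM at 7 d and 1.24, 1.11, 0.737 and 0.755 FPKM at 14 d, a mean ratio of 10.3 at levels that stayed near 1 (difference 0.83, SE 0.09, adjusted p = 0.00555). Emb, embigin, a partner of monocarboxylate transporters, rose from 12 ± 1.11 to 22.4 ± 3.68 FPKM (adjusted p = 0.0184), and was lost without 14 d samples 1 and 4 and without 7 d sample 1 (0.0581, 0.0623 and 0.0627). Hlx, a homeobox factor whose gene lies 97667 bases from Gm37800, rose from 8.12 ± 2 to 16.8 ± 1.7 FPKM (adjusted p = 0.0204, lost in 4 of the 8 fits without 1 sample, up to 0.0736).

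Calls near the threshold changed with the scaling, while their differences moved little in most cases. With median-ratio scaling 16 of the named genes that had passed no longer did (adjusted p from 0.0574 to 0.161), namely Mstn, Psmd11, Ctsl, Myh4, Ugp2, Panx1, Tuba4a, Tubb6, Gbp9, Kpna2, Kpna4, Mb, Car3, Myom3, Ak1 and Crat. Under it the difference of Myh4 went from 0.85 to 0.83, that of Mb from 0.96 to 0.94 and that of Psmd11 from -0.41 to -0.43. With TPM 14 were lost (0.0509 to 0.0896), namely Slc15a2, Mstn, Ctsl, Panx1, Cxcl10, Gbp5, Gbp9, Kpna4, Xpo1, Myom3, Ak1, Crat, Kcnj11 and Sspn, and the difference of Slc15a2 went from -1.58 to -2.19. The fit of the 32 samples lost Chrng, Serpina3m, Cxcl10 and Myom3 (0.0935 to 0.244). Quantile normalization lost Kpna2, Ctsl and Car3 (0.0563 to 0.075), a pseudocount of 0.1 Cxcl10 and Slc15a2 (0.0695 and 0.087), a fit with no variance trend Ctsl, Ak1 and Crat (0.0556 to 0.0611), and the fit without mitochondrial genes Crat (0.0624). Calls were also gained, by Tubb5 with median-ratio scaling, Ckm with TPM, Fst and Gbp7 with quantile normalization, and Mymx in the fit of the 32 samples. Annotated exons of an antisense gene overlap Cdkn1c over 625, Fdft1 over 774, Mb over 476, Emb over 686, Crat over 470, Tuba8 over 368, Nmrk2 over 270, Mybpc2 over 192, Aif1l over 168, Cxcl10 over 133, Tubb4b over 121, Ugp2 over 78 and Sspn over 69 bases. Nmrk2 lies within Atcayos, a gene of the other strand that also rose (difference 0.49).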

How the data were processed

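RNA of GAS muscle was sequenced as paired 150 bp reads, per the study's methods. The authors deposited FPKM values, 1 per gene and sample, and the submitters' notes list CASAVA, HISAT2 2.1.0, DESeq2 and the build GRCm38. The counter and its strand setting are not given in the sources used here. For 33356 of 33397 genes, multiplying FPKM by GENCODE M21 merged exon length and by a total per sample gave whole fragments: 99.3% to 99.4% of values under 200 fragments lay within 0.05 of a whole number.

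log2(FPKM + 1) of the 4 Day14 and 4 Day7 samples was compared with limma 3.58.1 in R 4.3.3 (variance trend, Benjamini-Hochberg adjustment) for genes at 0.1 FPKM or more in at least 4 of the 8, and the step was tested on simulated data. The molecules of the study were also tested by exact two-sided permutation. Columns were tied to time points by their names, and the columns named C to 0 d because no other group remained. Replicates differed by more than sampling noise (chi-square per degree of freedom 9.96 to 40.9). Symbols given to more than 1 gene (17) were taken as the gene with the higher mean.

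Genes named were the 12 largest higher and 12 largest lower differences among genes that passed, did not overlap and had a mean of 1 FPKM in either group, up to 2 higher and 2 lower passing members per functional list, the molecules of the study (1 is not reported here), and members needed to say what did not pass. Other genes were chosen after their values were seen, as the text says or, for Mb, Car3, Ckm, Popdc2, Kcnj11, Myom3, Sspn, Tmem252, Crat, Nmrk2, Ak1 and Map1b, as stated here. The members and lists were chosen with earlier results of these data known. Promoter windows came from RefSeq. Python 3.11.15 with pandas 2.3.3 was used for other steps. Alternatives covered the pseudocount, filter, scaling, variance trend, samples in the fit and limma-voom on recovered fragments.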

Additional observations from a re-analysis of the deposited data

Results flagged for a closer look

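In 15 of 261 groups of 4 samples of a named gene, 1 sample lay far from the other 3 by Dixon's criterion, and chance gives about 13.1. At 14 d, Hpgd had 121 FPKM in sample 3 against 64.5 to 72.6 in the others, and Ass1 had 8.66 FPKM in the same sample against 10.7 to 11.1. Tubb2a had 33.4 FPKM in 14 d sample 2 (others 25.6 to 26.7). In 14 d sample 1, Gbp9 had 5.91 FPKM (others 5.11 to 5.24) and Chrna1 229.6 FPKM (others 192 to 197). At 7 d, Stk40 had 64.2 FPKM in sample 2 (others 46.2 to 48.5), and Fkbp1a had 38.4 FPKM in sample 3 (others 45.1 to 45.5). The other 8 were at 0 d, samples that enter only the fit of the 32 samples. Sample 1 of 0 d had 0 FPKM for Gm37800, 6.76 for Serpina3n and 0.29 for Pycard. Sample 3 had 2.81 FPKM for Gm26109. Sample 4 had 0.104 FPKM for Chrna9, 361 for Ugp2, 1.53 for Il18 and 22.7 for Kcnj11.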

How the results depend on the processing

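No paired analysis was possible because the columns carry letters and not the replicate numbers of the labels. Of the settings tried, the fit of the 32 samples called 277 higher and 311 lower genes, no filter on low values 39 and 27, and TPM 61 and 45. A fold of 1.5 in addition left 52 and 43, and an unadjusted p under 0.05 gave 1109 and 1054. Leaving out 1 sample gave 38 to 77 higher and 16 to 72 lower genes, of which 43.8% to 72.9% were higher (59.1% with no filter, and equal numbers as reported). Of the 158 genes, 41 passed under each setting, and the 0 sign changes cover those 158. Without the filter 33 named genes that had passed were lost, Trim63 among them (-1.0, adjusted p = 0.0765), and its difference lay between -1.09 and -0.88 with 1 sample left out. Values near 0 turned sign: with 1 sample left out, Casp1 ran from -0.19 to 0.03, Gsdmd from -0.19 to 0.06, Il18 from -0.19 to 0.09, Musk from -0.1 to 0.0 and Fkbp1a from -0.07 to 0.02, while quantile normalization gave Fkbp1a 0.02 and Atp2a1 -0.14. In the same fits list medians ran from -0.03 to 0.05 for excitation-contraction coupling, 0.04 to 0.15 for glycolysis, 0.01 to 0.08 for fatty acid oxidation, -0.11 to -0.03 for heat shock proteins and -0.11 to -0.0 for polyamine genes. Quantile normalization gave heat shock proteins -0.04 and the adipocyte marker sum 0.67. The median of the lymphocyte markers was 0.25 with a filter of 1 FPKM, 0.22 with limma-voom and 0.22 with a pseudocount of 0.1, and that of the satellite cell markers 0.23 with limma-voom and 0.21 with that pseudocount. The cause of these shifts was not tested. With 4 samples a group and 15534909 to 17561584 fragments a library, low genes such as Nlrp3 rest on few fragments.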
